A study of Mus musculus with 4 samples.

Results

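The genes described here are 10 components of bone morphogenetic protein (BMP) signalling, measured in single mouse embryos at embryonic day 5.5. They were taken by symbol from the deposited table of 47885 rows and comprise the ligand genes Bmp4, Bmp8b and Bmp2, the target genes Id1, Id2, Id3, Msx1 and Msx2, and the inhibitor genes Bambi and Smad6. All 10 were found, all passed the filter on low counts, and they are 10 of the 15563 genes tested. The control group, called WT, held 2 embryos labelled Mettl14+/+ and the knockout group, called KO, held 2 embryos labelled Mettl14-/-, all of the C57BL/6 background and without treatment other than the knockout. Mettl14 encodes a subunit of the enzyme that writes N6-methyladenosine on RNA, and the age was chosen by the study because mutant and normal embryos still look alike. Each library came from 1 whole embryo, whose polyadenylated RNA was amplified by Smart-Seq v4, per the labels' protocols. Genotypes were assigned once the reads existed, by a Mettl14 qPCR on remaining cDNA, and embryos with Mettl14 mRNA became the controls, so a heterozygous control is possible. The deleted exons and the litters of the embryos are not stated in the labels. Mettl14 itself had 34.0 and 31.6 CPM in WT against 4.63 and 8.04 CPM in KO, which is no independent check because the gene defined the groups.

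BMP ligands are secreted dimers that bring together type I and type II receptor kinases, which phosphorylate SMAD1, SMAD5 and SMAD9. These join SMAD4 and switch on target genes in the nucleus, among them the Id genes and the inhibitors that close a negative feedback loop. In the egg cylinder of the mouse, BMP4 and BMP8B come from the extraembryonic ectoderm and BMP2 from the visceral endoderm, and together they prepare the neighbouring epiblast for mesoderm and primordial germ cells. The BMP4 signal also restrains the formation of the distal visceral endoderm, the source of secreted antagonists.

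Total counts ran from 16108062 to 28698541 per embryo. CPM are counts divided by library size, scaled by the trimmed mean of M values (TMM), and multiplied by 1000000, and 1 count equalled 0.0359 to 0.059 CPM. Log2 fold changes are KO over WT with their standard error (SE) from edgeR's quasi-likelihood test, adjusted by Benjamini and Hochberg over all 15563 genes, with a threshold of 0.05. Replicates are separate single embryos, only 4 in all. A p-value or SE here rests on estimates of spread shared across the tested genes, and not only on a gene's own 4 values. An exact permutation test of 2 against 2 cannot give a two-sided p below 0.333. By the log2 CPM of all tested genes KO replicate 1 correlated as well with the WT embryos (Pearson r = 0.93 and 0.925, across genes) as with KO replicate 2 (0.923), genes not being independent replicates, while KO replicate 2 correlated at 0.879 and 0.914 with the WT embryos. Fold changes are accordingly also given with 1 embryo left out.

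None of the 10 genes passed the threshold in either direction by edgeR, where 0% of all tested genes passed as higher and 0% as lower, nor by DESeq2, which called 0.906% of tested genes higher and 0.572% lower. Even Mettl14, which defined the groups, did not pass by edgeR (adjusted p = 0.274), though it did by DESeq2 (adjusted p = 0.000435). At an unadjusted edgeR p under 0.05, 2 of the 10 genes (Bambi and Msx1) were higher in KO and 0 were lower, against 4.74% and 3.08% of all tested genes. Both KO embryos lay above both WT embryos for 4 of the 10 genes (Bmp4, Msx1, Bambi and Smad6), and below them for 0, against 19.4% and 18.8% of all tested genes. With CPM on library totals the count above was 3, without Smad6. The median log2 fold change of the 10 genes was 0.03, beside -0.03 for all tested genes, with 5 positive and 5 negative values. The gap between the groups was wide for Bmp4, Msx1 and Bambi, narrow for Smad6, and absent for the other 6 genes.

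**Figure D1:**
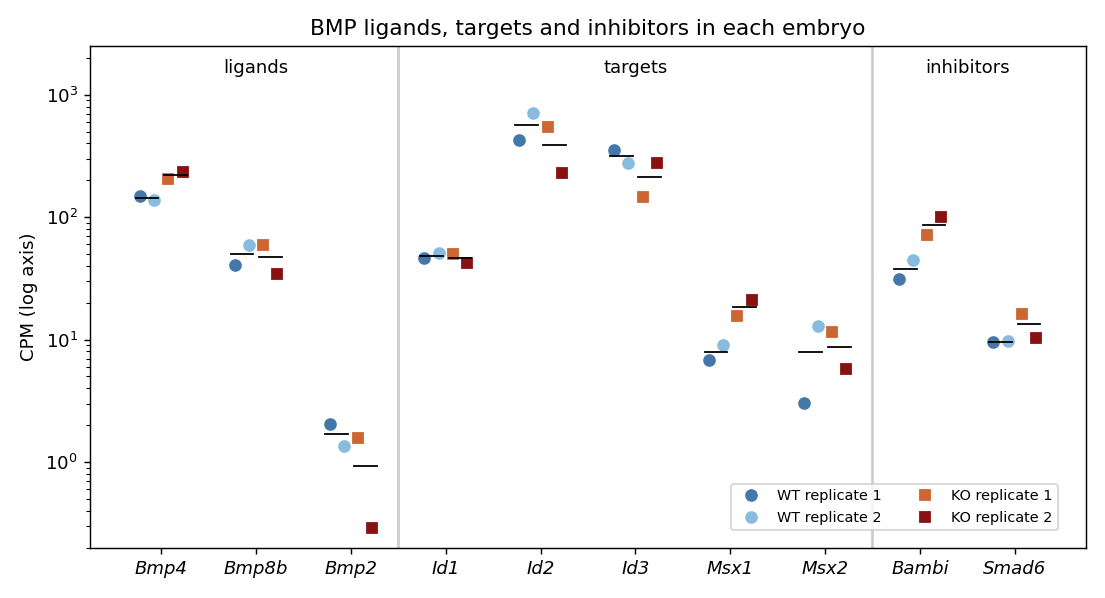
CPM of the 10 genes in each embryo, on a log axis. Circles are WT embryos, squares are KO embryos and black lines are group means of 2. The KO values lie above the WT values for Bmp4, Msx1, Bambi and, by a narrow gap, Smad6.

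Among the ligands, Bmp4 had the highest level per kilobase and was the only one whose groups did not overlap. Bmp4 (ENSMUSG00000021835, chromosome 14, 46383520 to 46390669 on mm10) had 148 and 139 CPM in the WT embryos and 204 and 235 CPM in the KO embryos. Both KO embryos were higher, and the WT embryos lay close together. Group means were 143 ± 6.71 CPM in WT and 220 ± 22.0 CPM in KO (SD, n = 2), a 1.53-fold difference, and the log2 fold change was 0.61 (SE 0.29, edgeR unadjusted p = 0.0682, adjusted p = 0.686). The fold change stayed between 0.52 and 0.79 with any 1 embryo left out. Exons of Bmp4 overlap those of Gm15217 on the opposite strand over 89 of 2248 bases, and Smart-Seq does not mark the strand.

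Bmp8b, which acts with Bmp4 in the induction of germ cells, had 40.8 and 59.0 CPM in WT and 59.6 and 34.2 CPM in KO. The KO embryos lay on either side of the WT embryos, so the groups overlapped fully (log2 fold change -0.09, SE 0.41, edgeR adjusted p = 0.985). Bmp8b has a close copy, Bmp8a, on the same chromosome, and its exons overlap those of Ppie and Gm17244 on the opposite strand over 133 and 339 of 3880 bases, so its counts are uncertain. The ratio of Bmp4 to Bmp8b per kilobase was 6.27 and 4.06 in WT and 5.91 and 11.9 in KO, so only KO replicate 2 lay outside the WT range. Bmp2, the ligand of the visceral endoderm, was scarce, with 35 and 25 counts in the WT pair and 33 and 8 counts in the KO pair. These correspond to 2.06 and 1.34 CPM in WT, and to 1.56 and 0.287 CPM in KO. KO replicate 1 lay between the WT embryos. The exact 95% Poisson interval of KO replicate 2 (0.124 to 0.566 CPM, counting error only) ended below those of the other 3 embryos, the lowest of which began at 0.865 CPM. The log2 fold change of Bmp2 was -0.89 (SE 1.10, edgeR adjusted p = 0.921). It was -2.46 without KO replicate 1 and -0.11 without KO replicate 2, so its size rested on KO replicate 2.

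The target genes differed in direction and size. Msx1, a homeobox repressor induced by BMP in many embryonic tissues, had 6.78 and 8.98 CPM in WT and 15.5 and 21.2 CPM in KO. Both KO embryos were well above both WT embryos, a 2.33-fold difference of means (7.88 ± 1.55 CPM against 18.4 ± 3.99 CPM, SD, n = 2). The log2 fold change was 1.22 (SE 0.45, edgeR unadjusted p = 0.026, adjusted p = 0.554; DESeq2 adjusted p = 0.337). Its paralog Msx2, also a homeobox target, had 3.01 and 12.9 CPM in WT and 11.6 and 5.78 CPM in KO. The WT embryos of Msx2 spanned the KO embryos (log2 fold change 0.12, SE 0.72, edgeR adjusted p = 0.987), and the sign depended on the embryo left out, from -0.57 without WT replicate 1 to 1.54 without WT replicate 2. Per kilobase, Msx1 stood at 2.39 and 0.738 times Msx2 in WT and at 1.42 and 3.88 times in KO, so the order of the pair was not the same in every embryo.

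Id1, Id2 and Id3 encode helix-loop-helix proteins without a DNA-binding region, which hold E proteins and their partners off DNA and so delay differentiation. Id1 was the steadiest of the 10 genes, with 46.1 and 50.8 CPM in WT and 50.4 and 42.3 CPM in KO. The groups overlapped, and the log2 fold change was -0.06 (SE 0.34, edgeR adjusted p = 0.986). Id2, the highest of the 10 genes per kilobase, had 428 and 713 CPM in WT and 544 and 231 CPM in KO. KO replicate 1 lay between the WT embryos and KO replicate 2 below both (log2 fold change -0.56, SE 0.44, edgeR adjusted p = 0.853). Id3 had 352 and 278 CPM in WT and 146 and 279 CPM in KO. Here KO replicate 1 was the low embryo, and KO replicate 2 lay at the level of WT replicate 2 (log2 fold change -0.57, SE 0.37, edgeR adjusted p = 0.797). Id2 and Id3 had nearly the same fold change, but from different embryos. The Id2 fold change was -0.06 without KO replicate 2 and -0.13 without WT replicate 2, its highest embryo. Without KO replicate 1 the Id3 fold change was -0.09.

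On the scale of CPM per kilobase of merged exon, which allows levels of different genes to be added, the Id genes together held 412 and 491 in WT and 348 and 287 in KO. The sum was lower in both KO embryos, although no Id gene separated the groups by itself. The same order held with scaling by the relative log expression (RLE) method and with library totals, which gave 434 and 457 in WT and 365 and 279 in KO. The sum was formed after the values had been seen and was not tested. The shares of Id2 and Id3 in the sum differed within groups as much as between them. Id1 held the smallest share, 9.66% and 8.92% in WT and 12.5% and 12.7% in KO. That share was higher in both KO embryos, although the level of Id1 itself overlapped, and it was not tested. Id2 held 42.6% and 59.5% of the sum in WT, against 64.1% and 33.0% in KO. Id3 held 47.7% and 31.6% in WT and 23.4% and 54.3% in KO. WT replicate 1 and KO replicate 2 thus had more Id3 than Id2, and the other 2 embryos more Id2 than Id3.

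**Figure D2:**
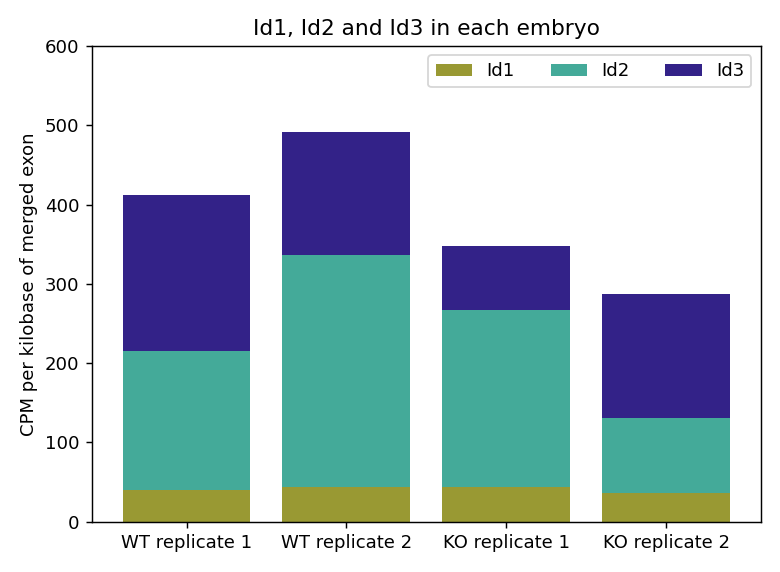
Stacked bars of Id1, Id2 and Id3 in each embryo, in CPM per kilobase of merged exon. The full height is 412 and 491 for WT, 348 and 287 for KO, and the larger of the Id2 and Id3 segments differs between embryos of the same group.

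Promoter windows from RefSeq (build GRCm38.p6, the assembly of mm10) were found for 7 of the 10 genes: Bmp4, Bmp8b, Id2, Id3, Msx1, Msx2 and Smad6. Each runs from 250 bases before the annotated start to 50 bases after it, 5′ to 3′ on the gene's strand. The windows of Bmp4 and Msx1 are shown because these genes had higher values in both KO embryos, and those of Id2 and Id3 because the groups of these targets overlapped. Capitals mark GGCGCC, a GC-rich sequence bound by SMAD1 and SMAD5, and CAGAC or its reverse complement GTCTG, the SMAD binding element, both searched on both strands. The motifs share no overlapping match in these windows.
Bmp4: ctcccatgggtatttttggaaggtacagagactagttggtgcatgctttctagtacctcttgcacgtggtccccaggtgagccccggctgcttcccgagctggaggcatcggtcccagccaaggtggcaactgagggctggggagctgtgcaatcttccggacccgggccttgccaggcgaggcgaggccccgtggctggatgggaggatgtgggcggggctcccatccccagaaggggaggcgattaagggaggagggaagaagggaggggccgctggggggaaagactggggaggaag
Msx1: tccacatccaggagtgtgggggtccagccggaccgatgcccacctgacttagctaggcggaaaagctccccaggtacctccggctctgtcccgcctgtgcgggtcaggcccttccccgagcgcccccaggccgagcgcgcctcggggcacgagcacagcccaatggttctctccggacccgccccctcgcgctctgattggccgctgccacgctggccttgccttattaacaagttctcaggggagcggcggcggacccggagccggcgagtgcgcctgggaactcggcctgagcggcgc
Id2: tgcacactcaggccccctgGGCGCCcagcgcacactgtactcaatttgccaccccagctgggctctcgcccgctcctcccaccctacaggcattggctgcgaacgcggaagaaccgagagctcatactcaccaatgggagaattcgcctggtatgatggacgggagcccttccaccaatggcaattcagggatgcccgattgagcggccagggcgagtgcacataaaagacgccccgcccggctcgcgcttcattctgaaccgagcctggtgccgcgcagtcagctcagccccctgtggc
Id3: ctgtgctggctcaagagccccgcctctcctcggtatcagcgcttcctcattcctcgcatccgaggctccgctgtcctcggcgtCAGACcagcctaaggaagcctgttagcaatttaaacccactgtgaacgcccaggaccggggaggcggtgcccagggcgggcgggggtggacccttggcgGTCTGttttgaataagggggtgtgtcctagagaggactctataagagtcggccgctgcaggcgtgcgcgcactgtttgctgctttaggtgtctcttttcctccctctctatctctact
The windows lie at chr14:46390620-46390919, minus strand (Bmp4), chr5:37824536-37824835, minus strand (Msx1), chr12:25096043-25096342, minus strand (Id2) and chr4:136143572-136143871, plus strand (Id3). GGCGCC was present in 1 of the 7 windows, that of Id2, beginning at position -231 from the start, and in 11.9% of 32544 mouse promoter windows. CAGAC or GTCTG was present in 2 of the 7 windows, those of Id3 (beginning at positions -167 and -68) and Bmp8b (position -126), and in 49.5% of all windows. The windows of Bmp4, Msx1, Msx2 and Smad6 held no match, which says only that these letters are not in these stretches.

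Of the inhibitors, Bambi had the larger difference. Bambi encodes a membrane protein that resembles a type I receptor but lacks the kinase and so damps BMP, activin and TGF-beta signals. It had 31.0 and 45.0 CPM in WT and 72.0 and 100 CPM in KO. Both KO embryos lay above both WT embryos, with means of 38.0 ± 9.97 CPM in WT and 86.0 ± 19.8 CPM in KO (SD, n = 2), a 2.26-fold difference. The log2 fold change was 1.18 (SE 0.37, edgeR unadjusted p = 0.0133, adjusted p = 0.491; DESeq2 adjusted p = 0.143). Bambi had the smallest p of the 10 genes, and its fold change ran from 0.93 to 1.48 with 1 embryo left out. Smad6, the inhibitory SMAD that blocks BMP type I receptors and SMAD1, had 9.55 and 9.73 CPM in WT and 16.3 and 10.3 CPM in KO. Only KO replicate 1 stood clearly above the WT embryos (log2 fold change 0.46, SE 0.46, edgeR adjusted p = 0.893), and on library totals KO replicate 2 fell within the WT range. Bambi stood at 2.05 and 2.93 times Smad6 per kilobase in WT and at 2.79 and 6.11 times in KO.

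**Figure D3:**
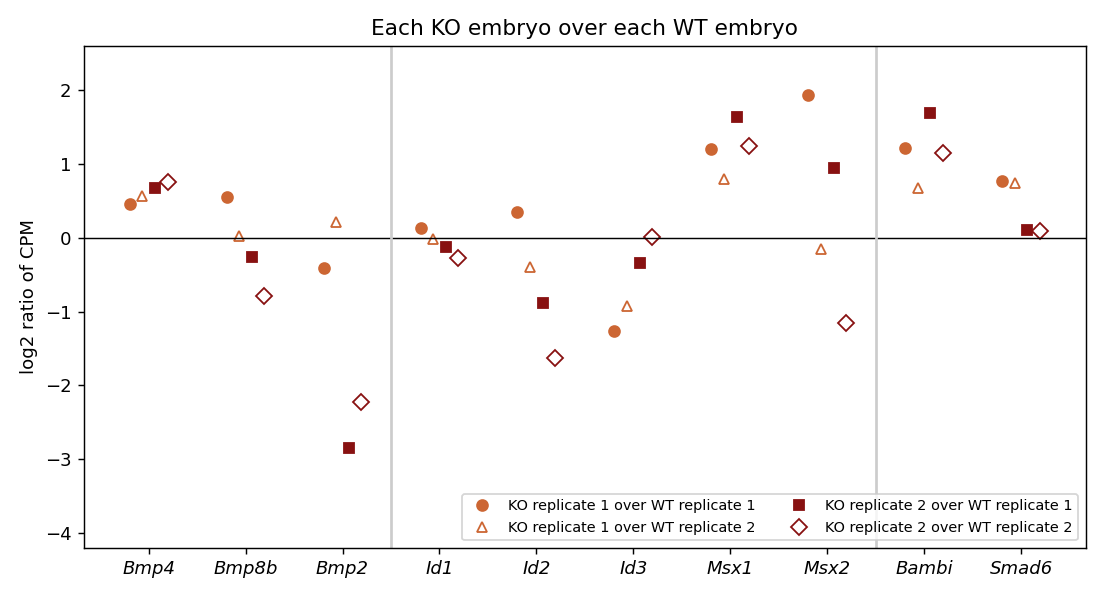
Log2 ratio of CPM of each KO embryo over each WT embryo, 4 ratios for each gene. All 4 ratios are positive for Bmp4 (0.46 to 0.76), Msx1 (0.79 to 1.64), Bambi (0.68 to 1.69) and Smad6 (0.09 to 0.77), and the signs differ within each of the other genes.

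The pairwise ratios show how far the embryos set each value. For Bmp4 the 4 ratios of a KO embryo to a WT embryo lay between 0.46 and 0.76 on the log2 scale, the narrowest range above 0. For Msx2 they ran from -1.16 to 1.94, for Bmp2 from -2.85 to 0.22, and for Id2 from -1.63 to 0.35. For Id3 they ran from -1.27 to 0.01, with KO replicate 1 below both WT embryos. Id1 stayed between -0.27 and 0.13.

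Levels of the genes were ordered per kilobase of merged exon, over all 4 embryos. Id2 (mean 196) and Id3 (147) led, followed by Bmp4 (80.8), Id1 (40.9), Bmp8b (12.5), Bambi (12.2), Msx1 (4.23), Smad6 (3.58), Msx2 (2.53) and Bmp2 (0.369), all in CPM per kilobase. Id2 stood at the 97.7th percentile of tested genes by this level, Bmp4 at the 94.3rd, Msx1 at the 57.7th and Bmp2 at the 14.5th. Neighbours whose ranges over the 4 embryos did not overlap were Bmp4 and Id1, Id1 and Bmp8b, and Msx2 and Bmp2. All other neighbours in the order overlapped. The order changed between groups in 2 places. Bmp8b (mean 12.9) was above Bambi (7.49) in WT without overlap, while in KO Bambi (16.9) was above Bmp8b (12.1) with overlap. Smad6 (3.01) was above Msx1 (2.54) in WT, and Msx1 (5.93) above Smad6 (4.15) in KO, with overlap in KO. Bmp4 and Id3, which were 63.8 and 176 per kilobase in WT without overlap, came to 97.7 and 119 in KO, where their ranges overlapped.

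The rest of the pathway was examined through a list of 56 other genes for ligands, proteases, antagonists, receptors, SMADs, intracellular inhibitors and targets. The filter on low counts passed 40, and 4 had 0 counts in every embryo. By edgeR 0 of the 40 passed the threshold, where 0% of all tested genes passed; DESeq2 called 1 higher (Gata2) and 0 lower, against 0.906% and 0.572% of all tested genes. The median log2 fold change was 0.31, beside -0.03 for all tested genes, with 27 positive and 13 negative values. At an unadjusted edgeR p under 0.05, 7 were higher and 1 was lower (4.74% and 3.08% of all tested genes). Both KO embryos lay above both WT embryos for 17 of the 40 and below them for 4, against 19.4% and 18.8% of all tested genes. No test of the list was made, and members that passed the filter only through the counts of 1 group had to lean toward that group. Among the 7 these were Pcsk5, Nbl1, Atoh8 and Dlx3, and among the 17 also Acvrl1 and Dlx5, all through KO counts. The 1 lower gene, Cer1, passed through its WT counts, as did Chrd, also among the 4 below. All of these genes also enter the median.

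The 10 other ligand genes were scarce, summing to 6.48 to 8.43 CPM in each embryo, and 2 were tested. Bmp7, a ligand of many epithelia, had 2.18 and 2.83 CPM in WT and 4.15 and 2.01 CPM in KO. Bmp8a had 3.66 and 3.47 CPM in WT and 2.97 and 4.81 CPM in KO, so that Bmp8b stood at 4.4 to 12.4 times Bmp8a per kilobase. Bmp6 had at most 1.61 CPM in any embryo and was not tested.

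Among 4 tested proteases that cut ligand precursors or free ligand, 2 lay above WT in both KO embryos and 0 below (19.4% and 18.8% of all tested genes). They are Furin and Pcsk5, which had 3 and 1 counts in WT and passed the filter through its KO counts. Furin, the proprotein convertase of the secretory pathway, had 1.41 and 4.06 CPM in WT and 8.55 and 11.0 CPM in KO. Both KO embryos were higher (log2 fold change 1.83, SE 0.65, edgeR adjusted p = 0.528). Pcsk6, the other convertase of the extraembryonic ectoderm, had 33.2 and 22.8 CPM in WT and 26.1 and 14.2 CPM in KO (log2 fold change -0.48, SE 0.45). Bmp1, which cleaves the antagonist chordin, overlapped between groups (-0.08, SE 0.60).

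Of 8 tested antagonists, 2 lay above WT in both KO embryos and 2 below, near the 19.4% and 18.8% of all tested genes, with a median log2 fold change of -0.22. The 2 above include Nbl1, with 11 and 7 counts in WT, which passed the filter through its KO counts. The 2 below are Cer1, with 0 and 35 counts in KO, and Chrd, with 27 and 4. Both passed the filter through their WT counts. Cer1, an antagonist of NODAL and BMP made by the anterior visceral endoderm, had 6.66 and 15.8 CPM in WT and 0 and 1.26 CPM in KO. Both KO embryos were far below the WT embryos, and the difference did not pass (log2 fold change -4.11, SE 1.28, edgeR adjusted p = 0.488; DESeq2 adjusted p = 0.755). Cer1 passed in 3 of the 11 alternatives, which were no low-count filter (adjusted p = 3.81e-05), without KO replicate 1 (log2 fold change -3.08, adjusted p = 0.0408) and without KO replicate 2 (adjusted p = 0.00126), where the remaining KO embryo had 0 counts. Twsg1, an extracellular modulator of BMP binding, had groups that overlapped (20.9 and 26.2 CPM in WT, 22.5 and 28.0 CPM in KO). Fst, which sequesters activin and some BMPs, also overlapped, with a log2 fold change of 0.38 (SE 0.51).

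Of 10 tested receptors and coreceptors, 5 lay above WT in both KO embryos and 1 below (19.4% and 18.8% of all tested genes), with a median log2 fold change of 0.66. The 5 include Acvrl1, with 6 and 16 counts in WT, which passed the filter through its KO counts. Bmpr1a, the main type I receptor for BMP4, had 78.7 and 69.9 CPM in WT and 94.0 and 67.0 CPM in KO. The log2 fold change was 0.12 (SE 0.34, edgeR adjusted p = 0.976). Bmpr2, the type II receptor, ranged more widely, with 27.2 and 11.1 CPM in WT and 53.3 and 7.0 CPM in KO. The KO embryos were its highest and lowest, and its log2 fold change of 0.65 became -1.37 without KO replicate 1. The activin type IIB receptor gene Acvr2b, which also binds BMPs, differed by 0.39 (SE 0.37). The coreceptor genes of the repulsive guidance molecule family, named after their values were seen, were all higher in both KO embryos. Rgma had 1.18 and 1.28 CPM in WT and 2.93 and 3.30 CPM in KO, Rgmb differed by 1.13 (SE 0.53) and Hjv by 1.16 (SE 0.85) on the log2 scale. The SMAD genes were close to even. Of 3 tested, 1 lay above WT in both KO embryos and 1 below (19.4% and 18.8% of all tested genes). Smad1 had 29.1 and 27.3 CPM in WT and 30.5 and 31.8 CPM in KO (log2 fold change 0.14, SE 0.36), while Smad5 and Smad4 differed by -0.29 (SE 0.41) and -0.07 (SE 0.35). Of 5 intracellular inhibitors, 2 lay above WT in both KO embryos and 0 below (19.4% and 18.8% of all tested genes). Smad7, which blocks both TGF-beta and BMP receptors, had 43.7 and 30.9 CPM in WT and 71.4 and 16.1 CPM in KO. Its KO embryos lay on either side of WT, as those of Bmpr2 did. The ubiquitin ligase gene Smurf2 and the corepressor gene Ski differed by 0.33 (SE 0.38) and 0.29 (SE 0.36).

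Of 8 other tested BMP-responsive genes, 5 lay above WT in both KO embryos and 0 below (19.4% and 18.8% of all tested genes), with a median log2 fold change of 1.26. The 5 include Atoh8, with 4 and 2 counts in WT, Dlx3, with 1 and 4, and Dlx5, with 3 and 13, which passed the filter through their KO counts. Their log2 fold changes (3.15, 3.54 and 1.26) also enter the median, which therefore leans upward. Of the 8 values, 3 were negative. Hand1, a bHLH factor of giant cells and extraembryonic mesoderm, had 151 and 262 CPM in WT and 519 and 469 CPM in KO (log2 fold change 1.26, SE 0.34, edgeR adjusted p = 0.402, DESeq2 adjusted p = 0.0568). Gata2, a GATA factor of trophoblast, had 2.59 and 7.7 CPM in WT and 42.9 and 10.2 CPM in KO. KO replicate 1 was far higher than the rest (log2 fold change 2.36, SE 0.78, edgeR adjusted p = 0.513, DESeq2 adjusted p = 0.044), and the value was 1.07 without KO replicate 1. Tbx3, a T-box factor, had 1.83 and 5.93 CPM in WT and 1.89 and 1.65 CPM in KO, an overlap of the groups.

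**Figure D4:**
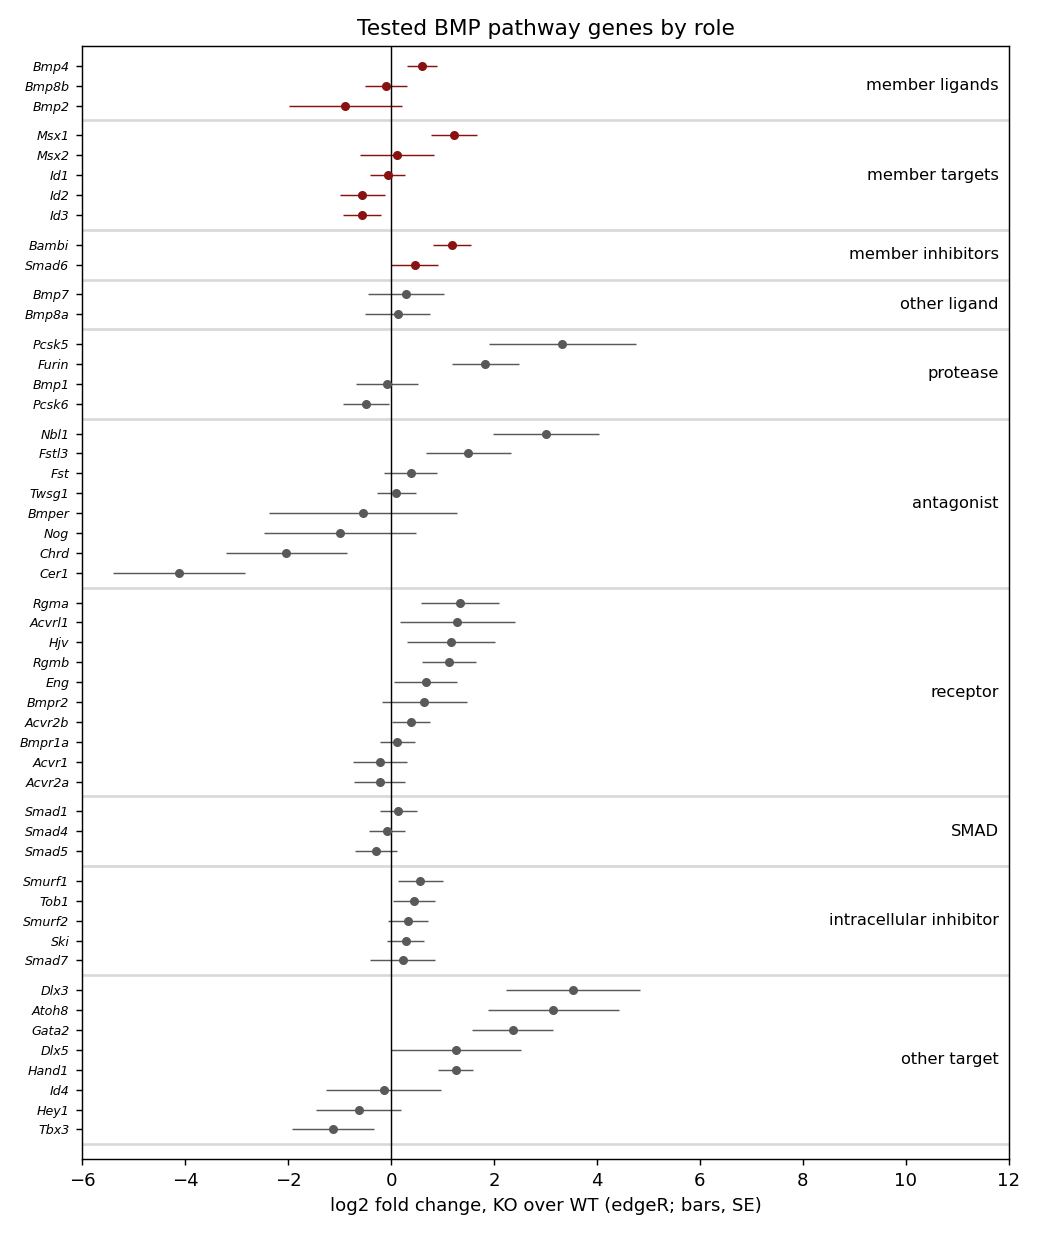
Log2 fold changes, KO over WT, of the 10 genes (red) and the 40 tested genes of the rest of the pathway (grey), by role, with the SE as bars. Red points run from -0.89 to 1.22 and none passed the threshold.

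Whole embryos hold several tissues, and in such samples fewer cells of a type and less RNA per cell cannot be told apart. Markers of the epiblast, extraembryonic ectoderm and visceral endoderm were present in every embryo. The 15 extraembryonic ectoderm markers, for the tissue that makes Bmp4 and Bmp8b, summed to 1480 and 2190 CPM in WT and 3010 and 2040 CPM in KO. Those groups overlapped, with 4 of 15 markers above WT in both KO embryos and 1 below. As for all marker counts here, the shares of all tested genes were 19.4% above and 18.8% below. Markers of the ectoplacental cone and giant cells summed to 358 and 552 CPM in WT and 1780 and 1020 CPM in KO, with all 6 tested of 11 markers above WT in both KO embryos and 4 at 0 in every embryo. The 6 include Prl3d1, with 0 and 13 counts in WT, and Prl7a1, with 5 and 0, which passed the filter through their KO counts. Hand1 is in this list and in the pathway list. Visceral endoderm markers, for the tissue that makes Bmp2, summed to 1710 and 3970 CPM in WT and 1090 and 1210 CPM in KO. Apoe held 822 and 1570 CPM of this sum in WT and 760 and 767 CPM in KO. Apoa1 held 441 and 1110 CPM in WT and 173 and 194 CPM in KO. Of 16 tested markers, 13 were below WT in both KO embryos. The 13 include Fgb, with 3 and 47 counts in KO, which passed the filter through its WT counts. The 10 distal and anterior visceral endoderm markers summed to 136 and 197 CPM in WT and 43.4 and 81.5 CPM in KO, with 7 below WT in both KO embryos. The 7 include Cer1, which passed the filter through its WT counts. Epiblast markers summed to 3950 and 3880 CPM in WT and 2880 and 3810 CPM in KO, with 2 of 12 above and 5 below. The part of these tissues in the values of Bmp4, Bmp2, Msx1 and Bambi was not tested.

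Markers of maternal decidua, a tissue that makes Bmp2, were low. Its 13 markers summed to 22.2 and 40.2 CPM in WT and 10.8 and 10.3 CPM in KO, and 5 of 7 tested were below WT in both KO embryos. The 5 include Hoxa10, Col1a2, with 0 and 1 counts in KO, and Pgr, with 18 and 12. These passed the filter through their WT counts and so had to lean toward WT. Hoxa11 was at 0 in every embryo, and Hoxa10 was at 0 in both KO embryos with 15 and 93 counts in WT. Endothelial markers, for a tissue rich in Id1 and Id3, summed to 49.4 and 56.1 CPM in WT and 82.9 and 70.7 CPM in KO, with Emcn at 0 in every embryo. Egfl7 alone held 35.4 and 44.7 CPM of this sum in WT and 24.9 and 37.9 CPM in KO. Of 9 tested endothelial markers, 3 lay above WT in both KO embryos, 1 below and 5 overlapped. The 3 above (Cdh5, Esam and Sox18) passed the filter through their KO counts, and the 1 below (Cldn5) through its WT counts. Cdh5 was at 0 in WT and at 37.1 and 8.43 CPM in KO, and Cldn5 was at 1.06 and 1.02 CPM in WT and at 0 in KO. The 10 blood and immune markers summed to at most 5.71 CPM. Parietal endoderm markers summed to 389 and 1040 CPM in WT and 638 and 598 CPM in KO.

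**Figure D5:**
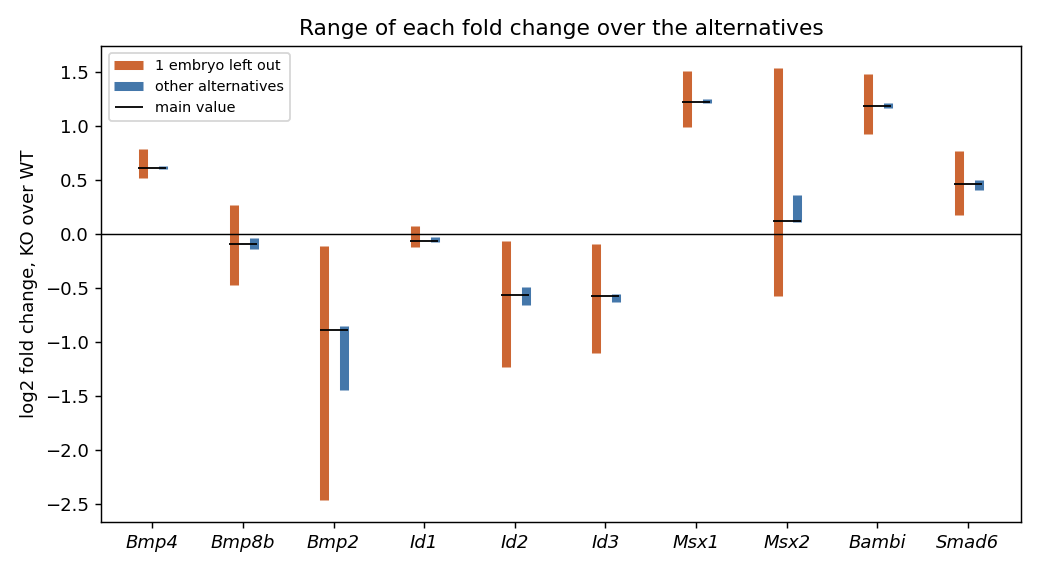
Range of the log2 fold change, KO over WT, of each of the 10 genes when 1 embryo was left out (orange) and under the other alternatives (blue), with the main value as a black line. Bmp4, Msx1, Bambi and Smad6 stay above 0 and Bmp2, Id2 and Id3 below it, while Bmp8b, Id1 and Msx2 cross 0.

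Over the 11 alternatives the 10 genes kept their sides of the threshold, with 0 passing under any of them. Signs were the same for Bmp4, Msx1, Bambi, Smad6, Id2 and Id3 in all 11 and for Bmp2 in the 10 that tested it, as the plot of ranges shows. For Bmp4, Msx1, Bambi and Smad6 the separated groups fix the sign when 1 embryo is left out. Bmp8b, Id1 and Msx2 each changed sign in 2 of the 11.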

How the data were processed

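Read counts per gene, whole numbers without normalisation, were deposited by the authors as 1 table with a column for each of 4 embryos. The submitters' processing notes list TopHat, Cufflinks and the build mm10, with no version and no role for any. How reads were assigned to genes and strands is not stated in the labels. Of 47885 rows, 46574 matched GENCODE M21 identifiers, which gave symbols, coordinates and merged exon lengths; 816 had no Ensembl identifier and 495 were not found. Hjv was matched through its older symbol.

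The difference KO minus WT was fitted to all genes in edgeR 4.0.16 (R 4.3.3) by the quasi-likelihood method with robust dispersions, after TMM scaling and filterByExpr (count 10, total 15 as minimums). SE values were obtained as the size of the log2 fold change over the root of its F statistic. DESeq2 (1.42.0) and limma-voom (3.58.1) ran on the same filtered genes. The fits were tested on simulated data. Intervals are exact Poisson intervals of 95%. Amplified reads are not independent molecules, so they cover counting error only. Coordinates are on mm10 and start at 1.

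The 10 genes and all lists were chosen with earlier results of these data known, and no list test was made. Of the pathway list, 1 gene is not reported here. Named genes were all 10, Mettl14, the 3 genes of each pathway role with the highest mean CPM, and list genes past 0.05 by edgeR or DESeq2. Outside this rule, Pcsk5, Acvrl1, Rgma, Rgmb, Hjv, Nbl1, Chrd, Atoh8, Dlx3 and Dlx5 were named after their values were seen. So were the markers Prl3d1, Prl7a1, Apoe, Apoa1, Fgb, Hoxa10, Hoxa11, Col1a2, Pgr, Emcn, Egfl7, Cdh5, Esam, Sox18 and Cldn5. Alternatives were DESeq2, limma-voom, RLE scaling, library totals, no low-count filter, at least 50 counts in 2 libraries, each embryo left out, and the replicate number as a block; counts of separated groups under other scalings were added after seeing the data.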

Additional observations from a re-analysis of the deposited data

How the results depend on the processing

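Over all tested genes, counts past the threshold were 0 higher and 0 lower in KO by edgeR, limma-voom, RLE scaling, library totals and the filter of at least 50 counts. They were 141 and 89 with DESeq2, 157 and 101 with no low-count filter, and 52 and 19 with the replicate block. With 1 embryo left out they ran from 14 (without WT replicate 2) to 133 (without KO replicate 1) higher and from 1 to 209 lower, the lone embryo of a group being assumed to vary like the other group. None of the 10 BMP genes passed under any of these. Their median log2 fold change ran from -0.23 (without WT replicate 1) to 0.39 (without KO replicate 2), and that of the other pathway genes from 0.25 (replicate block) to 0.48 (without KO replicate 2), with 0.28 the lowest when 1 embryo was left out. In the pathway list DESeq2 called 1 higher (Gata2), no low-count filter 2 higher (Gata2 and Hand1) and 1 lower (Cer1), and leaving out 1 embryo 0 to 1 higher (Nbl1 without KO replicate 1, Gata2 without KO replicate 2) and 0 to 1 lower (Cer1, in each of these). The cause was not tested.

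With 1 embryo left out, signs changed for Bmp8b (-0.47 to 0.27), Id1 (-0.12 to 0.07), Msx2 (-0.57 to 1.54), Bmp1 (-1.14 to 0.56), Bmp7 (-0.24 to 0.74), Bmp8a (-0.25 to 0.51), Bmpr1a (-0.07 to 0.35), Bmpr2 (-1.37 to 1.49), Smad4 (-0.31 to 0.26), Twsg1 (-0.06 to 0.33) and Smad7 (-1.13 to 0.95). Smad7 was also at -0.15 by limma-voom and at -0.11 with the replicate block.

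No label ties same-numbered embryos to one litter or day. Deviations of same-numbered embryos from their group means correlated at 0.329 across genes, and the source of this was not tested. With the block, Bambi stood at 1.18 (edgeR adjusted p = 0.082), Bmp4 at 0.61 (0.244) and Msx1 at 1.22 (0.218). The depth allowed only 8 to 35 counts per embryo for Bmp2, whose counting intervals are correspondingly wide.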
